A study of Mus musculus with 10 samples.

Results

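The genes described here make or receive leukotrienes and related lipid mediators, and they were measured in the abdominal aorta of mice with a spontaneous dermatitis. The set held 10 genes of the 18193 that the array's probe sets name singly: Alox5ap, Alox5, Lta4h, Ltc4s, Ltb4r1, Cysltr1, Alox12, Alox15, Ptges and Hpgds. They were chosen by symbol, around Alox5ap, which was taken because its signal differed between the genotypes on these same arrays, and so the genotype differences of all 10 genes are given as descriptions with no test. The KCASP1Tg mice overexpressed human caspase-1 in epidermal keratinocytes under the K14 promoter and developed dermatitis spontaneously, and their littermates on the C57BL/6 background without the transgene were the WT mice. The abdominal aorta of 6 KCASP1Tg mice and 4 WT mice, all female and all labelled as 4 months or 16 weeks old, was measured on 1 array per mouse, and the labels name no further treatment for either group. The methods of the study state fewer mice for these arrays, and more RNA per array, than the labels do, and the groups and every n given here follow the labels. The promoter that drives the transgene is that of a keratinocyte gene, and in the aorta samples the keratinocyte genes Krt14, Krt5 and Krt1 had a signal below 100 on every array, whereas Krt10, a keratin of the upper epidermis, read 146 to 199 on KCASP1Tg arrays and 176 to 222 on WT arrays.

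Leukotrienes and prostaglandins are short-lived lipids made from arachidonic acid after a phospholipase has released it from membranes. For leukotrienes, the 5-lipoxygenase-activating protein, encoded by Alox5ap, presents arachidonic acid to 5-lipoxygenase, and the unstable product leukotriene A4 is then turned either into leukotriene B4, an attractant of neutrophils, or into the cysteinyl leukotrienes, which contract smooth muscle and make vessels leaky. The pathway is found mainly in myeloid cells such as neutrophils, macrophages and mast cells, whereas the 12-lipoxygenase encoded by Alox12 is the lipoxygenase of platelets, so the level of these transcripts in a vessel also depends on the blood and immune cells the sample holds.

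The 10 genes were represented by 16 probe sets, of which 11, from 8 genes, reached a signal of 100 on 4 or more arrays and entered the fit. The other 5 probe sets did not pass that filter, and they included the only probe set of Ltb4r1 and the only probe set of Hpgds. Of the 11 that passed, the 1 called higher in KCASP1Tg by limma, at a Benjamini-Hochberg adjusted p under 0.05, was that of Alox5ap, which was chosen for this difference, and 0 were called lower. The choice fixed that call, and nothing is read from it. Over all 26242 probe sets in the fit, 0.0686% were called higher and 0% lower, and without adjustment 1185 probe sets (4.52%) were higher and 898 (3.42%) lower at p under 0.05. In 1 of the 11, again Alox5ap, every KCASP1Tg array lay above every WT array, which was so for 1.98% of all probe sets, and in 0 of the 11 did every KCASP1Tg array lie below every WT array, which was so for 0.949%. The log2 difference was above 0 for 8 of the 11, with a median of 0.13 against −0.0018 over all probe sets in the fit. As the set was built around Alox5ap, these counts describe it only.

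Some arrays stood apart in ways that touch these genes. KCASP1Tg 4 had the highest summed signal of the neutrophil, monocyte and macrophage, eosinophil, T cell, B cell and lymph node venule marker lists, the lowest of the arterial smooth muscle list, and the lowest platelet sum of its group. Its smooth muscle sum was 31233, against 71428 to 82066 on the WT arrays. Genes of adipocytes, which surround the vessel, were also present on every array, with sums of 98790 to 157645 in KCASP1Tg and 112658 to 133589 in WT. Heart muscle markers were highest on WT 4, KCASP1Tg 1 and KCASP1Tg 2. Liver sums were highest on WT 1 and WT 3, at 102776 and 48509, and were 1481 on WT 2 and 5531 on WT 4. They were 3262 on KCASP1Tg 1 and 203 to 814 on the other KCASP1Tg arrays. The 5 liver genes in the fit had a median log2 difference of −4.76, so liver signal also differed between the genotypes. In a whole tissue sample, fewer cells of a type and less RNA per cell cannot be told apart. Median signals ran from 128 to 156 between arrays, and the correlation between any pair of arrays ran from 0.84 to 0.97.

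Alox5ap was the member with the clearest separation of the genotypes. Its probe set 1452016_at had signals from 1727 to 2808 on the KCASP1Tg arrays, with a median of 2083, and signals of 844, 963, 766 and 775 on the WT arrays 1 to 4. The lowest KCASP1Tg array thus lay well above the highest WT array. The mean signal was 2217 ± 430 in KCASP1Tg (SD, n = 6) and 837 ± 90.9 in WT (SD, n = 4), a log2 difference of 1.39 with a standard error of 0.16, or 2.62-fold. KCASP1Tg 3 and KCASP1Tg 4 were highest, at 2808 and 2669. Leaving out KCASP1Tg 4 gave 1.33, leaving out WT 1 and WT 3 gave 1.34, and leaving out WT 4, KCASP1Tg 1 and KCASP1Tg 2 gave 1.39. Without WT 1 and WT 3, with the exact Mann-Whitney test and with the replicate block, 0 probe sets of the whole array were called higher, and so the call for which Alox5ap was chosen was not made there. The exact Mann-Whitney test could call no probe set on these arrays, as its smallest p, 0.00952, became 0.325 after adjustment. The replicate block rests on numbers that the labels do not say pair the mice.

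Alox5ap is known to be expressed in myeloid cells. Of their marker lists, the neutrophil sums did not overlap between the genotypes, whereas the monocyte and macrophage, mast cell and eosinophil sums did. The summed signal of 11 neutrophil genes was 7532 to 63842 on KCASP1Tg arrays and 816 to 1142 on WT arrays, and 2 of the 9 genes that entered the fit were called higher, 7 of them had no overlap between the groups, and their median log2 difference was 3.38. Over all probe sets in the fit, 0.0686% were called higher, and in 1.98% every KCASP1Tg array lay above every WT array. The 2 called, S100a8 and S100a9, and also Camp, are genes that the study named as higher on these same arrays, so these counts describe the list only. In the monocyte and macrophage list of 12 genes, limma called 0 higher and 3 had no overlap, with a median log2 difference of 0.75 and sums of 18762 to 51675 on KCASP1Tg arrays and 13750 to 20119 on WT arrays. The mast cell sums overlapped, at 1662 to 3501 on KCASP1Tg arrays and 1334 to 2183 on WT arrays. Of that list Ms4a2, a subunit of the mast cell IgE receptor, was below 100 on every array. On 4 KCASP1Tg arrays Ms4a2 was above every WT array. Fcer1a, of the same list, read 183 on KCASP1Tg 3, 131 on KCASP1Tg 4 and under 100 on the other arrays. On 5 KCASP1Tg arrays Fcer1a was above every WT array, and KCASP1Tg 2 lay within the WT range. Neither gene passed the filter, and no difference was fitted for them. The eosinophil sum was 637 on KCASP1Tg 4, 109 to 184 on the other KCASP1Tg arrays and 57.0 to 144 on WT arrays. Prg2 and Epx passed 100 on KCASP1Tg 4 only, at 439 and 110, and Siglecf, Ccr3 and Il5ra were below 100 on every array. The part of these cells in the Alox5ap difference was not tested.

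**Figure D1:**
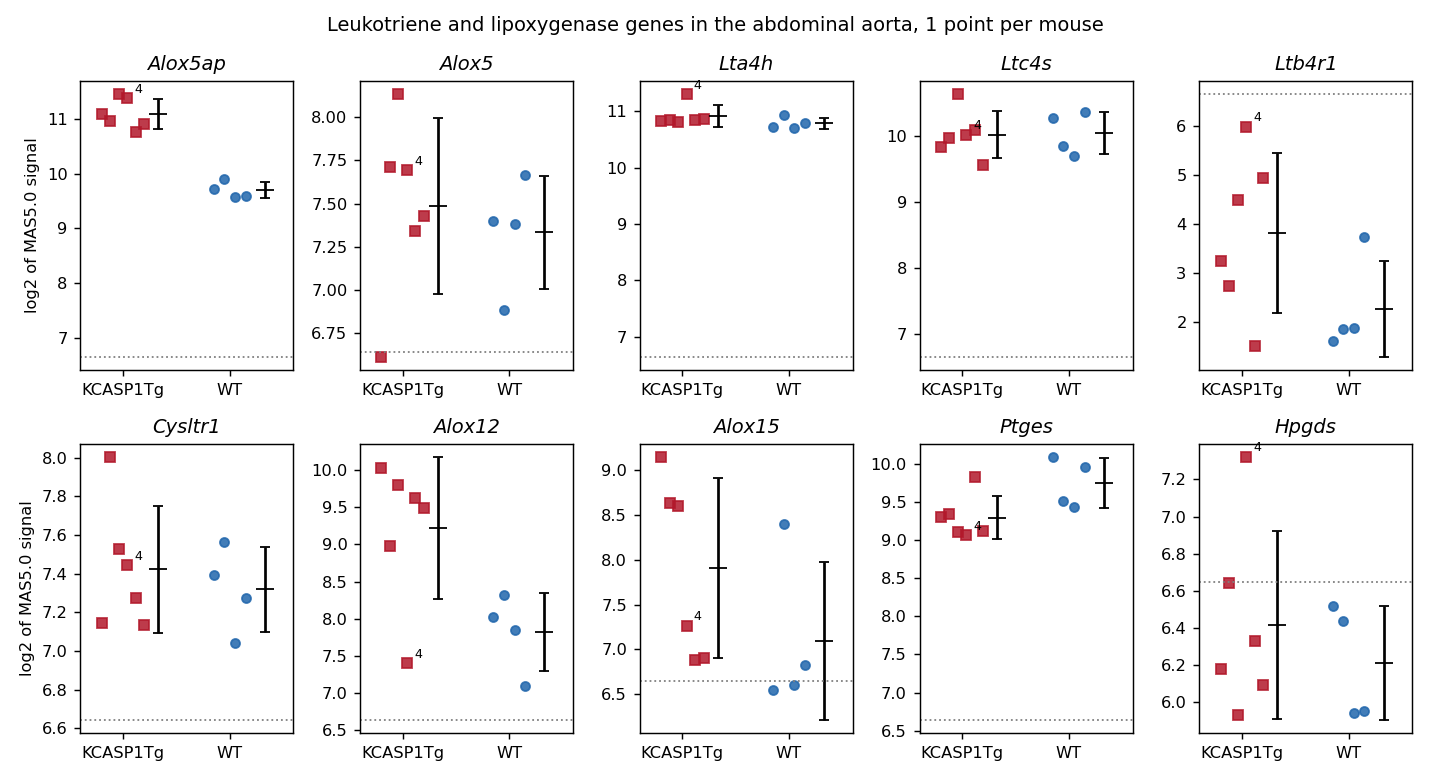
Log2 of the signal of each member's main probe set on the 6 KCASP1Tg arrays, left in each panel, and the 4 WT arrays, right, with 1 point per mouse, black marks for the mean ± SD of the log2 values, the digit 4 beside KCASP1Tg 4 and a dotted line at a signal of 100. For Alox5ap the KCASP1Tg arrays (1727 to 2808) all lie above the WT arrays (766 to 963), and for Alox12 all but KCASP1Tg 4 do.

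The other enzymes of leukotriene synthesis showed no such separation. Alox5 encodes 5-lipoxygenase, the enzyme that Alox5ap serves. Its probe set 1441962_at gave signals from 97.9 to 281 on KCASP1Tg arrays, with a median of 189, and signals of 169, 118, 167 and 203 on WT arrays 1 to 4. Of the KCASP1Tg arrays 3 lay above every WT array, 1 lay below every WT array and the other 2 lay within the range of WT, and the log2 difference was 0.15 with a standard error of 0.27. It was 0.42 without WT 4, KCASP1Tg 1 and KCASP1Tg 2, and 0.0029 without WT 2.

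Lta4h encodes leukotriene A4 hydrolase, which makes leukotriene B4. Its brightest probe set, 1434790_a_at, read 1784 to 2519 on KCASP1Tg arrays, with a median of 1837, and 1688, 1941, 1661 and 1777 on WT arrays 1 to 4. Apart from KCASP1Tg 4, which was at 2519, the KCASP1Tg arrays lay between 1784 and 1847 and within the range of WT. The log2 difference was 0.13 with a standard error of 0.12, and it was 0.05 without KCASP1Tg 4. A further Lta4h probe set, 1426807_at, had a mean signal of 141 ± 48.3 in KCASP1Tg (SD, n = 6) and 143 ± 54.2 in WT (SD, n = 4), a log2 difference of 0.0006 with a standard error of 0.30. The last one, 1453528_at, was below 100 on every array, at 11.9 to 92.3 in KCASP1Tg and 29.3 to 84.6 in WT.

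Ltc4s encodes leukotriene C4 synthase, which joins leukotriene A4 to glutathione and so starts the cysteinyl branch. On KCASP1Tg arrays its probe set 1419692_a_at ran from 755 to 1583, with a median of 1016, and on WT arrays 1 to 4 it read 1239, 915, 828 and 1306. The KCASP1Tg arrays enclosed the range of WT, and the log2 difference was −0.03 with a standard error of 0.21. The log2 difference of Alox5ap, 1.39, stood beside differences of 0.15, 0.13 and −0.03 for the 3 enzymes that act with it or after it. Alox5ap was chosen for its difference and the others were not, so that choice could itself widen the gap, and its part was not tested. The only Alox5 probe set also lay near the filter of 100.

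**Figure D2:**
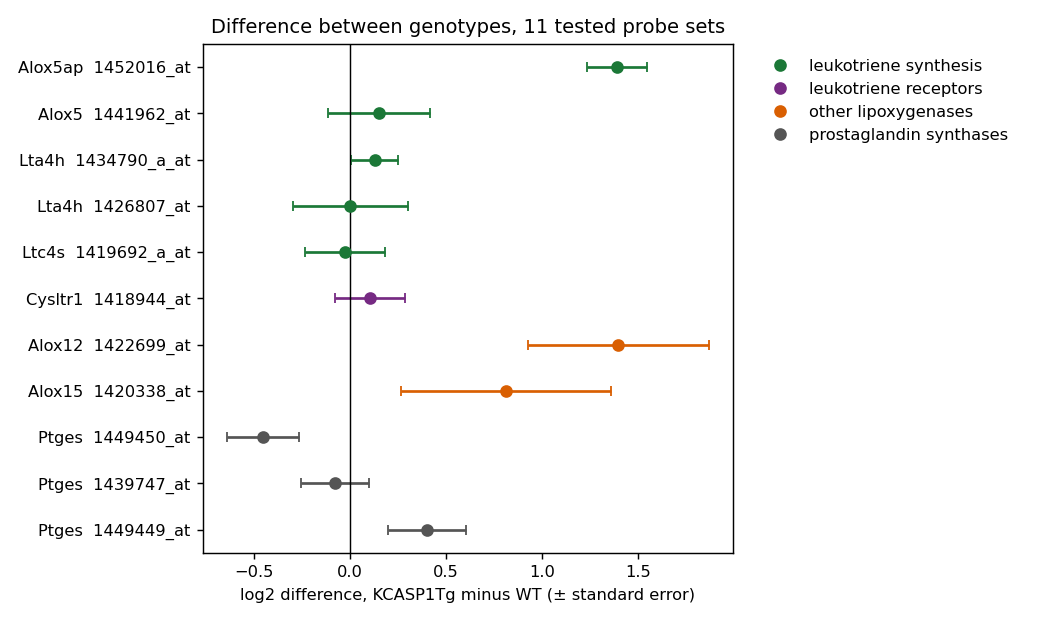
Log2 difference (KCASP1Tg minus WT) of the 11 member probe sets that entered the fit, with bars of 1 standard error on each side and colours for the role of the gene. Alox5ap and Alox12 lie near 1.4, with standard errors of 0.16 and 0.47, and the 3 Ptges probe sets lie on both sides of 0.

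Both leukotriene receptors of the set were dim. Ltb4r1 encodes the high-affinity receptor for leukotriene B4 on neutrophils and other leukocytes. Its probe set 1420407_at was below 100 on every array, from 2.86 to 63.2 on KCASP1Tg arrays with a median of 15.9, and at 3.06, 3.67, 3.68 and 13.3 on WT arrays 1 to 4. The highest value belonged to KCASP1Tg 4, the array with the highest neutrophil sum. At signals this far below the filter no difference was fitted.

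Cysltr1 encodes a receptor for the cysteinyl leukotrienes. Its probe set 1418944_at read 141 to 257 on KCASP1Tg arrays, with a median of 165, and 168, 189, 132 and 155 on WT arrays 1 to 4. The groups overlapped, and the log2 difference was 0.10 with a standard error of 0.18, which turned to −0.01 without KCASP1Tg 2, the highest array. Its other probe set, 1449282_at, did not pass the filter and read 15.1 to 107 on KCASP1Tg arrays and 33.5 to 75.6 on WT arrays.

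Alox12 had a log2 difference as large as that of Alox5ap, with a wider spread between mice. In the RefSeq promoter table (build GRCm38.p6), which held 7 of the 10 genes, the 250 bases before its start lie on the minus strand at chr11:70255371-70255620. They are shown because Alox12 followed the platelet genes from mouse to mouse, as given further on, and because megakaryocyte and platelet genes are known to use GATA, RUNX and ETS factors. Capitals mark the matches of GGGCGG, the core of a GC box, and of GGAAG, an ETS core, searched on both strands with CCGCCC and CTTCC as the reverse forms.
Alox12: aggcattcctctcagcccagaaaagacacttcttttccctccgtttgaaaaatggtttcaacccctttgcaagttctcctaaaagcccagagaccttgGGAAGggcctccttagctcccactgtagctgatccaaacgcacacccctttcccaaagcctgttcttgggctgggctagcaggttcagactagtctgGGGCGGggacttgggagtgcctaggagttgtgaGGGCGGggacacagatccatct
GGGCGG had 2 matches, and 32.7% of the 32851 promoters in the table held at least 1 match in a window of the same length. GGAAG had 1 match and was held by 64.1% of promoters. The GATA factor core, spelled GATAA, had 0 matches in this window and was held by 22.6% of promoters. For the core of RUNX factors, TGTGGT, there were 0 matches as well, and 14.0% of promoters held it. The motifs do not overlap one another, and a match is a run of letters and not a measured binding site.

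The brighter Alox12 probe set, 1422699_at, read 1038, 504, 891, 169, 789 and 718 on KCASP1Tg arrays 1 to 6, and 261, 319, 231 and 136 on WT arrays 1 to 4. On 5 of the 6 KCASP1Tg arrays Alox12 was above every WT array, and on KCASP1Tg 4 it lay within the WT range. The mean signal was 685 ± 309 in KCASP1Tg (SD, n = 6) and 237 ± 76.4 in WT (SD, n = 4), a log2 difference of 1.40 with a standard error of 0.47. It was 1.76 without KCASP1Tg 4 and 1.01 without WT 4, KCASP1Tg 1 and KCASP1Tg 2. The dimmer probe set, 1422700_at, did not pass the filter. It read 40.4 to 109 on KCASP1Tg arrays, with a median of 88.5, and 30.5, 43.7, 58.4 and 49.6 on WT arrays, and KCASP1Tg 2 and KCASP1Tg 4 were its lowest KCASP1Tg arrays as well.

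Alox12 varied between the KCASP1Tg mice in the same order as the platelet genes. Over the 6 KCASP1Tg arrays, the log2 signal of Alox12 and the mean log2 signal of the platelet and megakaryocyte list (Pf4, Ppbp, Gp9, Itga2b, Gp1bb, Treml1 and Tubb1) had a Pearson r of 0.999 (exact permutation p = 0.00139, two-sided) and a Spearman rho of 1 (exact permutation p = 0.00278). After Benjamini-Hochberg adjustment over the 96 pairs of 8 members and 12 lists, p was 0.133 for both, and so the pair did not pass. The smallest p that 6 arrays allow is 0.00139, which cannot pass an adjustment over 96 pairs on its own. Without KCASP1Tg 2 and KCASP1Tg 4, the arrays farthest from the median of the list, r was 0.9997.

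Other lists also had high r values with Alox12 over these arrays, and KCASP1Tg 4 was lowest of its group for each of them. With the arterial smooth muscle list r was 0.95 (exact permutation p = 0.025, adjusted p = 0.467) and rho 0.66 (exact permutation p = 0.175), and r was 0.96 without KCASP1Tg 4 and KCASP1Tg 6. With the endothelial cell list r was 0.90 (exact permutation p = 0.0389, adjusted p = 0.467) and rho 0.43 (exact permutation p = 0.419), but r was −0.95 without KCASP1Tg 2 and KCASP1Tg 4. With the adipocyte list r was 0.79 (exact permutation p = 0.0486, adjusted p = 0.467) and rho 0.77 (exact permutation p = 0.103), and r was 0.33 without KCASP1Tg 3 and KCASP1Tg 4. Whether the r with the platelet list differs from these was not tested.

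The platelet genes were also set against Alox12 singly. The deviations of Alox12 from its group means over the 10 arrays correlated with those of Gp9, a subunit of the platelet receptor for von Willebrand factor, at r = 0.99. Gp9 read 1071, 520, 899, 121, 885 and 698 on KCASP1Tg arrays 1 to 6 and 198, 191, 151 and 93.1 on WT arrays 1 to 4, close in shape to Alox12. The other r values were 0.97 for Tubb1, 0.96 for Ppbp and for Treml1, 0.95 for Gp1bb, 0.91 for Pf4 and 0.87 for Itga2b. For Alox5ap and the same 7 genes the r values ran from −0.32 to 0.11. Of these 7 platelet genes 0 were called higher by limma and 3 had no overlap between the groups, where the shares over all probe sets were 0.0686% and 1.98%. Their median log2 difference was 1.61, with sums of 4249 to 20379 on KCASP1Tg arrays and 3294 to 5476 on WT arrays. The part of platelets in the Alox12 difference was not tested.

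**Figure D3:**
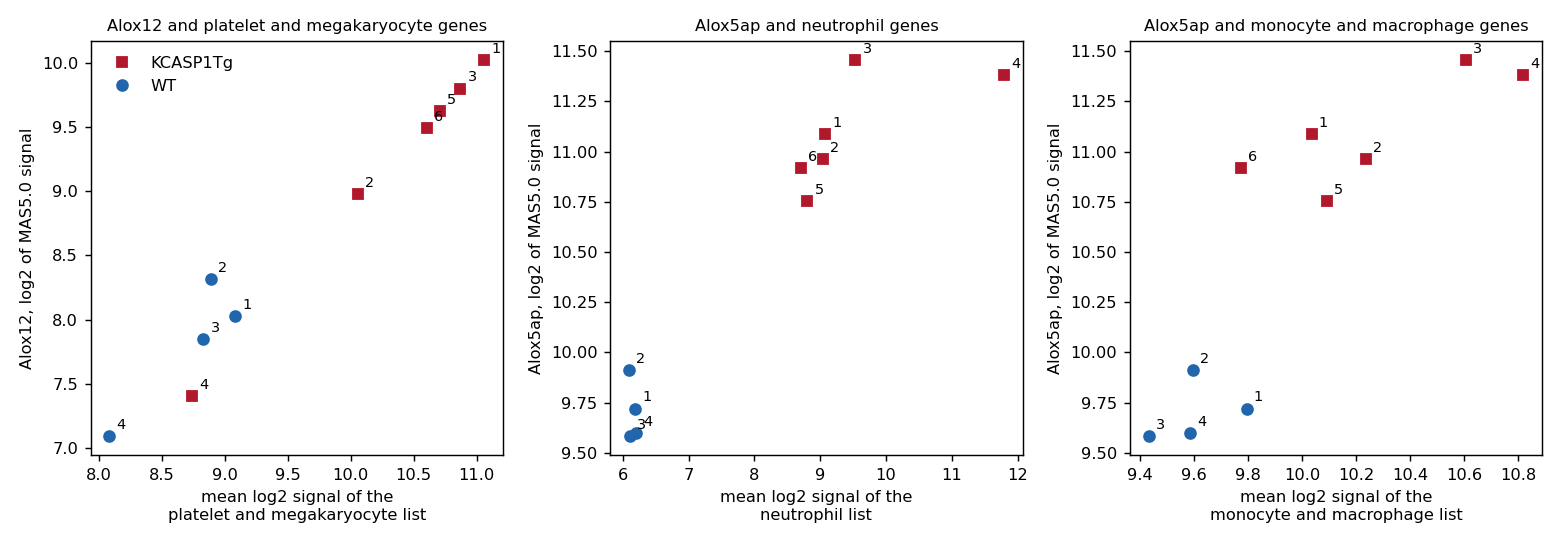
Log2 signals of Alox12 and Alox5ap against the mean log2 signal of marker lists, with 1 numbered point per array, squares for KCASP1Tg and circles for WT. Alox12 follows the platelet and megakaryocyte list over the 6 KCASP1Tg arrays (r = 0.999), whereas Alox5ap against the neutrophil list gives r = 0.70, with KCASP1Tg 4 far to the right.

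Alox15 encodes the 12/15-lipoxygenase, which in mice is known from resident peritoneal macrophages and eosinophils and makes precursors of anti-inflammatory lipids. Its probe set 1420338_at read 567, 398, 389, 154, 118 and 120 on KCASP1Tg arrays 1 to 6 and 93.7, 337, 97.2 and 113 on WT arrays 1 to 4. KCASP1Tg 1, KCASP1Tg 2 and KCASP1Tg 3 lay above every WT array, and the other KCASP1Tg arrays lay within the range of WT, which WT 2 stretched upwards. The log2 difference was 0.81 with a standard error of 0.55, and it was 0.23 without WT 4, KCASP1Tg 1 and KCASP1Tg 2 and 0.29 without WT 1 and WT 3. KCASP1Tg 1 and KCASP1Tg 2 also had high heart muscle sums, and Alox15 correlated with the heart muscle list over the 6 KCASP1Tg arrays at r = 0.89 (exact permutation p = 0.0361, adjusted p = 0.467, rho = 0.77, exact permutation p = 0.103). Without those arrays r was 0.75. WT 4, with the highest heart muscle sum of all arrays, read 113 for Alox15, where the other WT arrays read 93.7 to 337. Whether other tissue carried in with the aorta had a part in the Alox15 values was not tested.

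The prostaglandin synthases of the set gave no common direction. Ptges encodes the inducible prostaglandin E synthase, and its 3 probe sets disagreed. The brightest, 1449450_at, read 535 to 904 on KCASP1Tg arrays, with a median of 592, and 1088, 729, 689 and 993 on WT arrays 1 to 4. On 5 of the 6 KCASP1Tg arrays it was below every WT array, and KCASP1Tg 5 lay within the range of WT. The log2 difference was −0.45 with a standard error of 0.19. For 1439747_at the log2 difference was −0.08 with a standard error of 0.18, and for 1449449_at it was 0.40 with a standard error of 0.20, so that the mean over the probe sets was −0.04. No direction for Ptges can be given from these arrays.

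Hpgds encodes the hematopoietic prostaglandin D synthase, found in mast cells and some T cells. Its probe set 1421492_at passed 100 on only 1 array, KCASP1Tg 4, at 160. The other KCASP1Tg arrays read 60.9 to 99.9, and the WT arrays 1 to 4 read 91.4, 86.7, 61.5 and 61.8, so the groups overlapped at the limit of the filter.

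The genes of the wider pathway were taken from lists of arachidonate release, other lipoxygenases, leukotriene C4 handling, lipid mediator receptors, prostanoid synthesis and prostanoid receptors. Of 51 listed genes 45 had a probe set that names them singly and 32 entered the fit, and 0 were called higher and 0 lower by limma. At an unadjusted p under 0.05, 7 of the 32 were higher and 0 lower, where the shares over all probe sets were 4.52% and 3.42%. In 3 of the 32 every KCASP1Tg array lay above every WT array, where the share over all probe sets was 1.98%, and the median log2 difference was 0.13, as for the member probe sets. These lists were drawn up with earlier results of these arrays known.

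The 3 related genes without overlap stand at different steps. Tbxas1, thromboxane A synthase, was at 244 ± 38.7 in KCASP1Tg (SD, n = 6) and 159 ± 12.2 in WT (SD, n = 4), a log2 difference of 0.60 with a standard error of 0.13 and a limma adjusted p of 0.174. Dpep1, a dipeptidase that turns leukotriene D4 into leukotriene E4, was at 1648 ± 601 in KCASP1Tg and 792 ± 113 in WT, a log2 difference of 0.996 with a standard error of 0.24 and a limma adjusted p of 0.244. Both passed the threshold when arrays were weighted by their quality, with limma adjusted p values of 0.0365 for Tbxas1 and 0.0450 for Dpep1. Pla2g4a, the cytosolic phospholipase that releases arachidonic acid, was at 663 ± 178 in KCASP1Tg and 462 ± 66.8 in WT, with a log2 difference of 0.50 and a limma adjusted p of 0.533.

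The other related genes named by the rule had limma adjusted p values from 0.468 to 0.992. Fpr2, a receptor for lipoxin and for formyl peptides, and Cyp4f18, which degrades leukotriene B4 in mouse neutrophils, had log2 differences of 2.06 and 1.92. Both rested in part on KCASP1Tg 4, at 1028 for Fpr2, where the other KCASP1Tg arrays read 132 to 260, and at 723 for Cyp4f18, where they read 82.0 to 163. Without KCASP1Tg 4 the log2 differences were 1.63 for Fpr2 and 1.51 for Cyp4f18, and they were lower still at 1.40 for Fpr2 without WT 3 and 1.14 for Cyp4f18 without WT 4. Cotl1, a partner protein of 5-lipoxygenase, was at 5959 on KCASP1Tg 4 and at 1290 to 1816 on the other KCASP1Tg arrays, against 956 to 1460 on WT arrays. Pla2g15, a lysosomal phospholipase, had a log2 difference of 0.53, Ptgir, the prostacyclin receptor, 0.38, Cmklr1, a receptor for chemerin, −0.24, Slco2a1, a prostaglandin transporter, −0.29, Ptger3, a prostaglandin E2 receptor, −0.54, and Aloxe3, an epidermal lipoxygenase, −0.06.

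**Figure D4:**
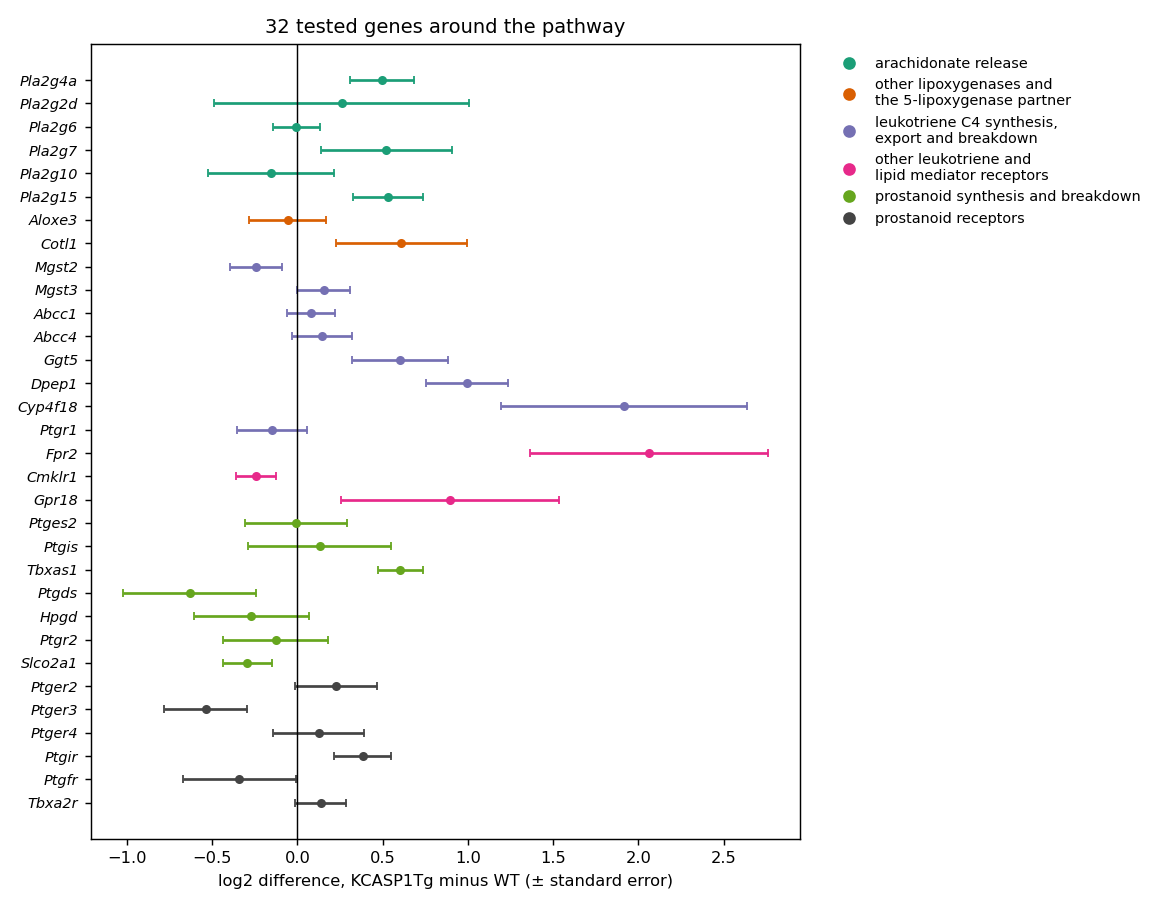
Log2 difference (KCASP1Tg minus WT) with its standard error for the 32 related pathway genes that entered the fit, grouped by list. None passed an adjusted p of 0.05, and the lowest adjusted p was 0.174, for Tbxas1.

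Within the KCASP1Tg group, no relation of Alox5ap to a leukocyte list passed adjustment over the 96 pairs. With the neutrophil list r was 0.70 (exact permutation p = 0.0736, adjusted p = 0.471) and rho 0.89 (exact permutation p = 0.0333, adjusted p = 0.548), and r was 0.69 without KCASP1Tg 3 and KCASP1Tg 4. With the monocyte and macrophage list r was 0.82 (exact permutation p = 0.0542) and rho 0.66 (exact permutation p = 0.175), and r was −0.00028 without KCASP1Tg 3 and KCASP1Tg 4. With the mast cell list r was 0.82 (exact permutation p = 0.0583) and rho 0.60 (exact permutation p = 0.242), and r was −0.30 without the same arrays. With the T cell list r was 0.72 (exact permutation p = 0.0653) and rho 0.77 (exact permutation p = 0.103), and r was 0.74 without KCASP1Tg 4 and KCASP1Tg 5. With the B cell list r was 0.69 (exact permutation p = 0.108) and rho 0.77 (exact permutation p = 0.103), and r was 0.98 without KCASP1Tg 1 and KCASP1Tg 4. The relations of Alox5ap to the monocyte and macrophage and mast cell lists rested on KCASP1Tg 3 and KCASP1Tg 4.

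Ltc4s and Alox5 had positive r values with the mast cell list that did not pass adjustment either. Ltc4s correlated with the mast cell list at r = 0.84 (exact permutation p = 0.0194, rho = 0.77, exact permutation p = 0.103), and r was 0.66 without KCASP1Tg 3 and KCASP1Tg 4. Alox5 correlated with that list at r = 0.82 (exact permutation p = 0.0375, rho = 0.89, exact permutation p = 0.0333), and r was 0.71 without those arrays. The adjusted p of both Pearson values was 0.467. Ltc4s had a like r with the fibroblast list, 0.79 (exact permutation p = 0.0722), and 0.83 without KCASP1Tg 3 and KCASP1Tg 4. Ptges ran against the T cell list in rank, with rho = −1 (exact permutation p = 0.00278, adjusted p = 0.133) and r = −0.64 (exact permutation p = 0.168). Of the 96 pairs 10 had an unadjusted Pearson p under 0.05 and 0 passed adjustment. Among the 10 were pairs not named above. Lta4h ran against the adipocyte list (r = −0.78, exact permutation p = 0.00694, adjusted p = 0.333), and r was −0.53 without KCASP1Tg 3 and KCASP1Tg 4. It also ran against the platelet and megakaryocyte list (r = −0.93, exact permutation p = 0.0306, adjusted p = 0.467), and r was −0.63 without KCASP1Tg 2 and KCASP1Tg 4. Alox5 ran against the liver list (r = −0.85, exact permutation p = 0.0458, adjusted p = 0.467), and r was −0.52 without KCASP1Tg 1 and KCASP1Tg 4. Outside the 10, Lta4h and the neutrophil list had r = 0.94 (exact permutation p = 0.167) but rho = −0.14 (exact permutation p = 0.803). That r was −0.87 without KCASP1Tg 3 and KCASP1Tg 4.

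**Figure D5:**
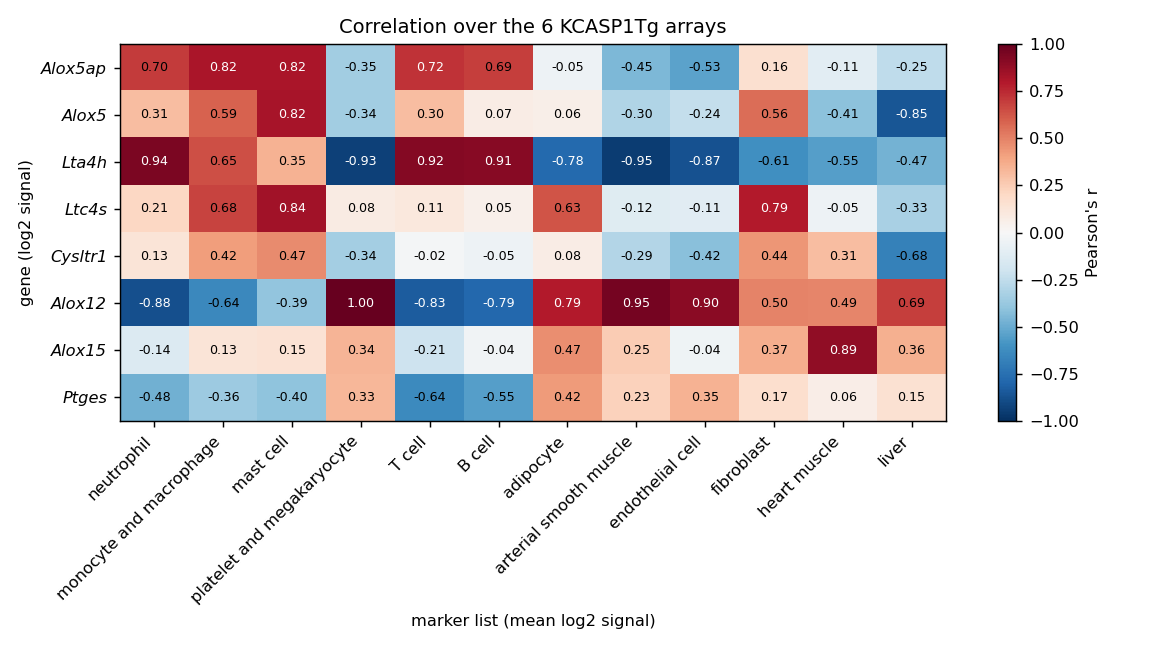
Pearson r, over the 6 KCASP1Tg arrays, of the log2 signal of each of 8 members with the mean log2 signal of each of 12 marker lists. The highest value is that of Alox12 with the platelet and megakaryocyte list (0.999), and no pair passed adjustment over the 96 pairs.

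Among the members themselves, the deviations from the group means over the 10 arrays gave few close pairs. Alox5 and Ltc4s had r = 0.61, Alox5ap and Lta4h had 0.49, and Alox5ap and Alox5 had 0.23. Alox12 and Lta4h ran in opposite ways, with r = −0.76, KCASP1Tg 4 being highest for Lta4h and lowest of its group for Alox12. These values share the same 10 arrays and are descriptions.

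The genes whose deviations were most like those of Alox5ap, of 12287 genes with a probe set in the fit, were Bok and Qars (r = 0.93), P2ry6 (0.92), Dapk3 and Tial1 (0.91), Mllt10, Snhg12 and Cbx1 (0.90), and Gzma and S100a4 (0.89). P2ry6, a receptor for extracellular nucleotides, had a log2 difference of 0.38, Gzma, a protease of cytotoxic lymphocytes, 0.54, and Bok, a BCL2 family member, 0.07. The likeness was one of variation within the genotypes, and the 10 genes had log2 differences between 0.04 and 0.54, all smaller than that of Alox5ap.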

How the data were processed

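Each GeneChip Mouse Genome 430 2.0 array was labelled from 100 ng of total RNA according to the labels, and the authors used MAS5.0 with global scaling to a target of 500. What they deposited is the linear intensity of every probe set. A mean trimmed by 2% on either side came to 499.9 on every array. A scan batch is not given in the sources used here.

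Of 45101 probe sets, 64 controls were left out. Signals under 1 were set to 1 and log2 transformed, and the 26242 probe sets that reached 100 on 4 or more arrays were fitted with limma 3.58.1 (R 4.3.3), KCASP1Tg minus WT, two-sided, with Benjamini-Hochberg adjustment over all of them. Probe sets were named only where the platform annotation gives 1 symbol (34945, with 932 naming several and 9160 none), and different probe sets of a gene were kept apart, the one with the highest mean signal being the main one. Related genes are shown by that probe set.

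The members and gene lists were chosen with earlier results of these data known. Named were all members, every called gene and up to 2 genes with the smallest unadjusted p of each related list, and the 10 genes most like Alox5ap. Correlations used exact permutations of the 6 KCASP1Tg arrays (SciPy 1.17.1, Python 3.11.15). Replicate numbers occur in both groups but name different mice. The alternatives were quantile normalization or centring on the median, a floor of 16, a pseudocount of 50, other signal filters, array weights, a trend in the prior variance, an exact Mann-Whitney test, the replicate block and arrays left out. The number of arrays limits the precision. Several genes of the lists (among them Ptgs1, Ptges3, Ggt1, Dpep2, Ltb4r2 and Akr1b3) were not analysed here because no probe set names them singly.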

Additional observations from a re-analysis of the deposited data

Results flagged for a closer look

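Of 56 groups of arrays examined for a single array far from the rest, 13 held one. The cutoff flags about 1 in 20 of independent groups with a normal spread. These groups share the same 10 arrays and some hold signals below the filter, so the count cannot be set against that rate. On KCASP1Tg 4, Lta4h (1434790_a_at) read 2519 where the other KCASP1Tg arrays read 1784 to 1847, and the dim Lta4h probe set 1453528_at read 11.9 where they read 46.3 to 92.3. The same array was far from the others of its group for 4 related genes: Cotl1 read 5959 against 1290 to 1816, Cyp4f18 723 against 82.0 to 163, Fpr2 1028 against 132 to 260, and Ptger3 1174 against 2199 to 2999.8. KCASP1Tg 4 also had the highest neutrophil sum and the lowest smooth muscle sum, and the part of these in the 6 values was not tested.

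Among the other KCASP1Tg arrays, Cysltr1 (1449282_at) was low on KCASP1Tg 6, at 15.1 against 58.0 to 107. Ptges was high on KCASP1Tg 5 with 1449450_at, at 904 against 535 to 651, and high on KCASP1Tg 1 with 1449449_at, at 292 against 172 to 208. Among the WT arrays, Alox15 was high on WT 2, at 337 against 93.7 to 113. WT 4 was high for Ltb4r1, at 13.3 against 3.06 to 3.68, and low for Cysltr1 (1449282_at), at 33.5 against 68.5 to 75.6, and for Cyp4f18, at 9.20 against 69.2 to 91.3, all signals below the filter of 100.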

How the results depend on the processing

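Over the 22 alternatives tried, the log2 difference of Alox5ap ran from 1.28 with array weights to 1.52 with the replicate block. That of Alox12 ran from 1.01 to 1.76 over 23. Alox5ap was chosen for this difference and its groups did not overlap, so leaving out arrays could not change its sign. Alternatives that change only the filter, the variance or the test leave a log2 difference as it is. The labels do not say that equal replicate numbers pair the mice. The deviations of same-numbered arrays correlated at 0.11, −0.31, −0.43 and −0.33, which cannot show whether those mice shared a litter, day or batch. The number of probe sets called higher over the whole array, 18 by limma, was 204 with array weights and 2 without WT 4, KCASP1Tg 1 and KCASP1Tg 2. It was 0 with the replicate block, without WT 1 and WT 3, and with the exact Mann-Whitney test, so that Alox5ap was not called in those last 3. The smallest p of that test here, 0.00952, could not pass the adjustment. With 1 array left out the number called higher ran from 10, without KCASP1Tg 1, to 61, without KCASP1Tg 4, and was 39 without KCASP1Tg 6. The number called lower, 0 by limma, was 1 with a floor of 16 or quantile normalization, 2 with a pseudocount of 50, no signal filter or median centring, 3 with a filter of 200 or an intensity trend, 63 with array weights, and from 0 to 8 with 1 array left out, with 8 without KCASP1Tg 4. Of the related genes 2 were called higher with array weights, Dpep1 and Tbxas1. Aloxe3 changed sign, to 0.0876 with array weights, and ran from −0.21 to 0.0454 with 1 array left out. The r of Alox5ap with the monocyte and macrophage list was −0.00028 without KCASP1Tg 3 and KCASP1Tg 4. The log2 difference of Lta4h was −0.07 as the mean of its probe sets. The cause of these changes was not tested. The alternatives that leave out WT 1 and WT 3, or WT 4, KCASP1Tg 1 and KCASP1Tg 2, were chosen after seeing the data. Signals under 100, those of Ltb4r1 and mostly those of Hpgds, are too dim to compare.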

Other observations

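The genes whose deviations from the group means were most like those of 2 further members were looked up after their values were seen. For Alox12 the list of 10 held Gp9, Tubb1, Ppbp, Treml1 and Gp1bb, all platelet genes, with r from 0.95 to 0.99. It also held Phldb2 (0.98), Rhoj and Nuak1 (0.96), and the smooth muscle genes Actg2 (0.96) and Tpm2 (0.95), whose log2 differences ran below 0, at −0.66 for Actg2 and −0.18 for Tpm2, whereas that of Gp9 was 1.93. For Alox15 the nearest genes were Stxbp4 (0.94), Saa3 (0.90), an acute-phase serum amyloid, and Prg4 (0.87), the lubricating proteoglycan of joint and mesothelial surfaces, and Prg4 averaged 761 in KCASP1Tg and 353 in WT.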
